A study of Mus musculus with 4 samples.

Results

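The protein genes of the spliceosomal small nuclear ribonucleoproteins (snRNPs) were examined in RNA from cells labelled as mouse skin regulatory T cells. Members were chosen by gene name alone, from the Snrp, Snrnp, Sf3a, Sf3b, Lsm and Prpf series, and 2 names marked as pseudogenes were left out. This gave 55 members among 55487 genes. The family was taken up with earlier results of the UVB comparison known, Snrnp25 among them, so its differences between groups are a description and carry no test.

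Dermatitis resembling psoriasis was induced in all mice with a daily dose of 60 mg of Aldara cream, which holds 5% imiquimod, an agonist of Toll-like receptor 7, on the shaved back. The non-UVB group (n = 2 libraries) had no further treatment that the labels give, and the UVB group (n = 2) was irradiated 3 times with narrow-band ultraviolet B, every other day. The labels do not state strain, age, sex or sorting gate. No source says whether the replicates came from separate animals, so the spread between them may be technical. Levels are in TPM, in which the length-scaled transcript levels of a library have a fixed sum, and values are given in the order non-UVB 1, non-UVB 2, UVB 1, UVB 2. The bases behind the values came to 3.41, 2.47, 4.20 and 2.38 gigabases.

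Markers of the labelled cell type were uneven across the 4 libraries. The sum of the 4 regulatory T cell markers was 562, 2070, 703 and 1837 TPM. Foxp3, the defining factor of these cells, was listed at 0, 19.4, 3.49 and 19.3 TPM, and the inhibitory receptor gene Ctla4 was at 314, 1496, 548 and 1473 TPM. Il2ra, a receptor chain for interleukin 2, did not follow them, at 248, 252, 134 and 176 TPM. The sum of the 3 gamma-delta T cell receptor genes found was 7699, 172, 7289 and 239 TPM. The sum of the 4 keratinocyte markers was 143, 1911, 282 and 1596 TPM, with Krt10 listed at 0 in non-UVB 2 and UVB 1. The 4 haemoglobin genes summed to 117400 TPM in non-UVB 1 and to between 1529 and 4414 TPM in the other 3 libraries. The sum of the 6 macrophage and dendritic cell markers was 6670, 2902, 12770 and 7792 TPM, and all 6 had a higher mean with UVB. The gamma-delta sum was higher in both libraries numbered 1, and the regulatory T cell and keratinocyte sums were higher in both numbered 2. The sum of the 4 CD4 T cell markers, at 1645, 3061, 1455 and 1601 TPM, did not follow the replicate number. The part of these cells in any result on the snRNP genes was not tested. In bulk RNA, fewer cells of a type and less RNA per cell cannot be told apart.

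The spliceosome removes introns from pre-mRNA. Each of its major particles, U1, U2, U4 and U5, is built on a small nuclear RNA held by a ring of Sm proteins, while U6 carries a related ring of Lsm proteins. U1 reads the 5′ splice site and U2 the branch point, and the U4/U6.U5 tri-snRNP then joins and is rearranged into the catalytic centre. A rare class of introns is removed by the minor spliceosome, whose U11/U12 particle has proteins of its own and shares the Sm ring and the SF3b complex.

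For the 5 genes under 1 TPM in each non-UVB library that reached 1 TPM in each UVB library, the bases just upstream of the start are shown, because these genes went from near 0 to detected between the groups. They are given 5′ to 3′ on the strand of the gene, from RefSeq windows on GRCm38.p6. Prpf31, Prpf38a and Snrnp200 each start close to a gene on the opposite strand, and for these the whole stretch between the 2 genes is printed. Capitals mark the CCAAT box (CCAAT, or ATTGG on the other strand) and the ETS core (CCGGAAG, or CTTCCGG on the other strand), and no 2 marked sites overlap.
Prpf31, chr7:3629930-3629984, plus strand: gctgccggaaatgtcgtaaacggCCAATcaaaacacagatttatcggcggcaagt
Prpf38a, chr4:108579337-108579422, minus strand: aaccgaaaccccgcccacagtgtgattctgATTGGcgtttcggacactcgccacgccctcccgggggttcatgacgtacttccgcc
Snrnp200, chr2:127208281-127208385, plus strand: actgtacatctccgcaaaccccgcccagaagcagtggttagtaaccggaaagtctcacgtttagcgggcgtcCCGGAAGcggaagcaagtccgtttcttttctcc
Snrnp25, chr11:32205165-32205414, plus strand: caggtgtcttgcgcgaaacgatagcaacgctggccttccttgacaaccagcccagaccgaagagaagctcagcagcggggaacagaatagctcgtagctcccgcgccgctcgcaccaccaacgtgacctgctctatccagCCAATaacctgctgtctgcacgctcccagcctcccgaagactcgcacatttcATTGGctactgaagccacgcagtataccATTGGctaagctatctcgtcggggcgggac
Snrnp48, chr13:38204689-38204937, plus strand: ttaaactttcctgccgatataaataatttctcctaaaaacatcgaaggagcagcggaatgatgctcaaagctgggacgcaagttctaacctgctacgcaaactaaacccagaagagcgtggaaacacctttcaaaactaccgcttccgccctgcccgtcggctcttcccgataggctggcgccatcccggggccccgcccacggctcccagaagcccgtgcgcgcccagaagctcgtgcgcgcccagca

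The 5 stretches differ in what they hold. Snrnp25 has 3 CCAAT boxes, Prpf31 and Prpf38a have 1 each, Snrnp200 has 1 ETS core, and Snrnp48 has neither. The CCAAT motif was chosen after the sequences were read. A RefSeq window of 250 bases before to 50 after the start was found for 44 of the 55 members. A gene was counted where any of its windows held the motif. The ETS core stood in 17 of these 44 genes (38.6%), against 22.7% of the 6243 tested genes with a window. The CCAAT box stood in 18 (40.9%), against 43.4% of those genes. Counted per window and not per gene, the ETS core stood in 8.86% and the CCAAT box in 37.4% of all 32851 windows. A match is only a match of letters.

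**Figure D1:**
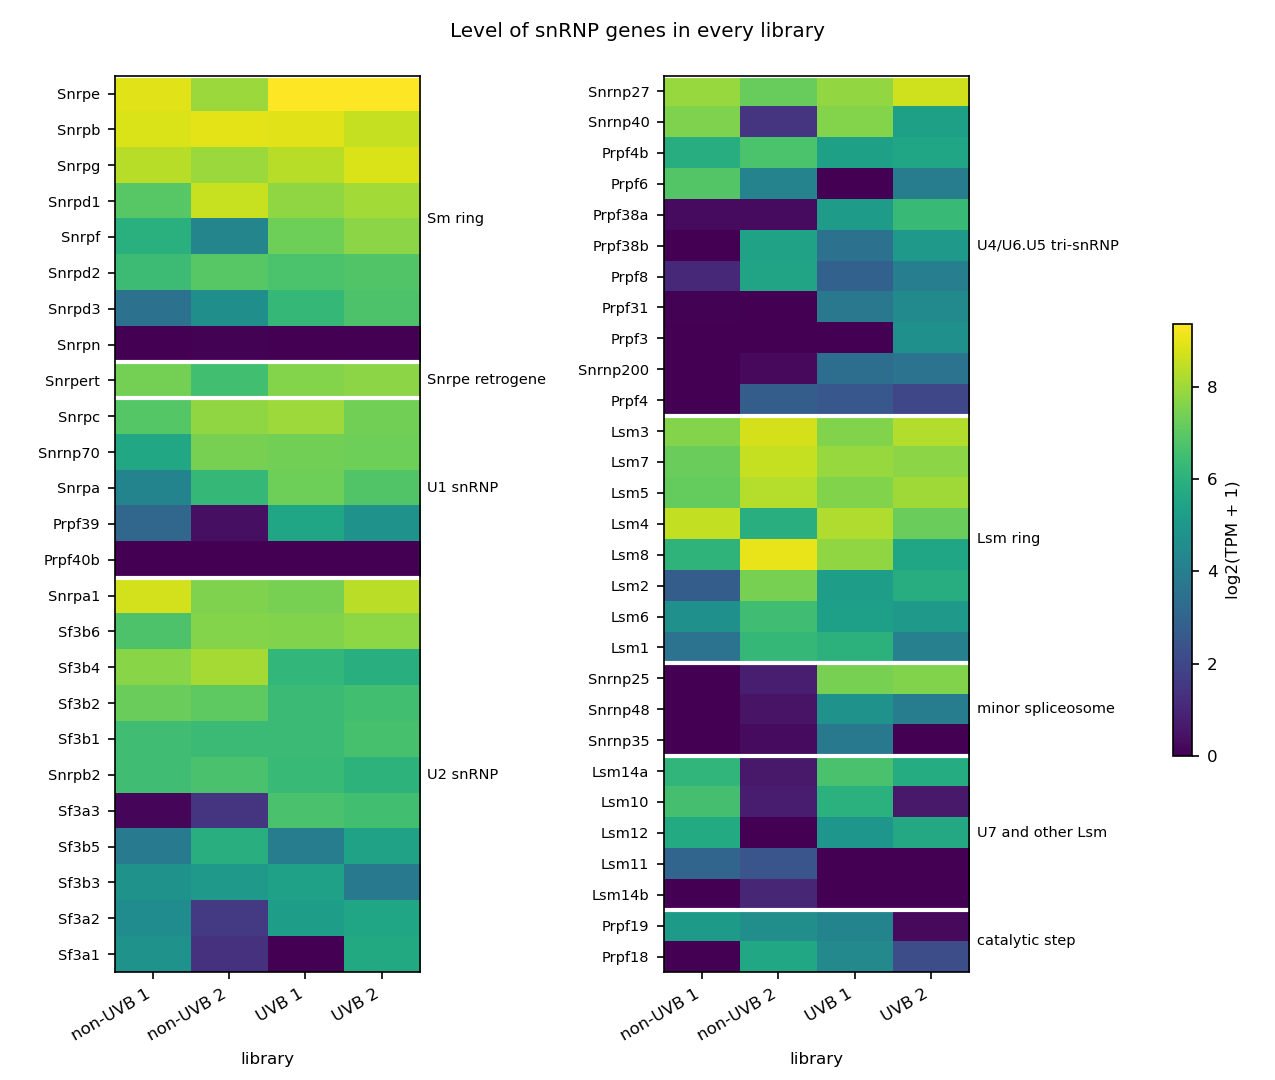
Level of the snRNP genes, all but 1 of the 55 (rows, grouped by particle and ordered by mean) in each of the 4 libraries (columns), as log2(TPM + 1) by colour. Dark cells stand for genes at or near 0, and the Sm and Lsm rings are at 1 TPM or more throughout except Snrpn, while the 3 minor spliceosome genes are dark in both non-UVB libraries.

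The 55 genes together had 4923, 5655, 6001 and 6058 TPM, a ratio of the group means of 1.14. After median scaling the ratio was 0.907 and the groups overlapped, and they also overlapped in FPKM. At 1 TPM or more, 41 members were detected in each non-UVB library and 48 in each UVB library. Of the 55, 32 (58.2%) reached 1 TPM in all 4 libraries, 11 in 3, 7 in 2, 3 in 1 and 2 in none.

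More genes were detected with UVB across the transcriptome too. Of the 10286 genes tested (1 TPM or more in at least 2 libraries), 28.9% and 27.8% were under 1 TPM in the non-UVB libraries and 11.8% and 12.7% in the UVB libraries. The filter passed 50 members, and those below 1 TPM among them numbered 9 and 10 (18% and 20%) in the non-UVB libraries and 3 and 3 (6% and 6%) in the UVB libraries. Over all 55, these numbers were 14 and 14 without UVB and 7 and 7 with it. The 5 not tested were Snrpn, Prpf40b, Prpf3, Snrnp35 and Lsm14b. Of the tested members 64% reached 1 TPM in all 4 libraries, against 46.7% of all tested genes. Among those with a mean of at least 50 TPM, these shares were 92.9% and 84.7%. Values under 1 TPM were not limited to genes that were weak in every library. Of the 38 members that reached 50 TPM in some library, 9 (23.7%) were under 1 TPM in another, against 37.1% of 5220 such tested genes. The 32 members seen in all libraries had a median exonic length of 2910.5 bp and a median mean level of 124 TPM, against 5439 bp and 18.8 TPM for the other 23. The split uses the same levels, so a lower mean level in the 23 is partly built in. No like comparison of level or length was made over all genes.

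With limma, 0 of the 50 tested members and 0 of all tested genes (0%) had an adjusted p under 0.05. At an unadjusted p under 0.05, 8 members were higher with UVB, where the background was 9.97%, and 2 were lower, where it was 1.37%. The 2 groups did not overlap and differed by at least 1 log2 at 11 members higher with UVB (background 18.1%) and at 4 lower (background 6.47%). Near 0 without UVB, under 1 TPM in each library of that group and not in the UVB group, were 5 members (background 10.1%), and 1 showed the opposite (background 1.22%). Without non-UVB 1 or non-UVB 2 the higher count was 18 or 17 and the near-0 count was 9 or 9. The lower count was 13 without non-UVB 1 and 7 without UVB 1, and the opposite near-0 count was 2 without UVB 1 and 3 without UVB 2. For these left-out settings no share of all tested genes was taken, and groups separate more easily with a library fewer. The median tested member differed by 0.44 log2, beside 0.26 for all tested genes, and it was -0.03 without non-UVB 1. Within number 1 it was 0.52 and within number 2 it was -0.10. Median scaling put the member median at 0.16 and that of all tested genes at 0.036.

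**Figure D2:**
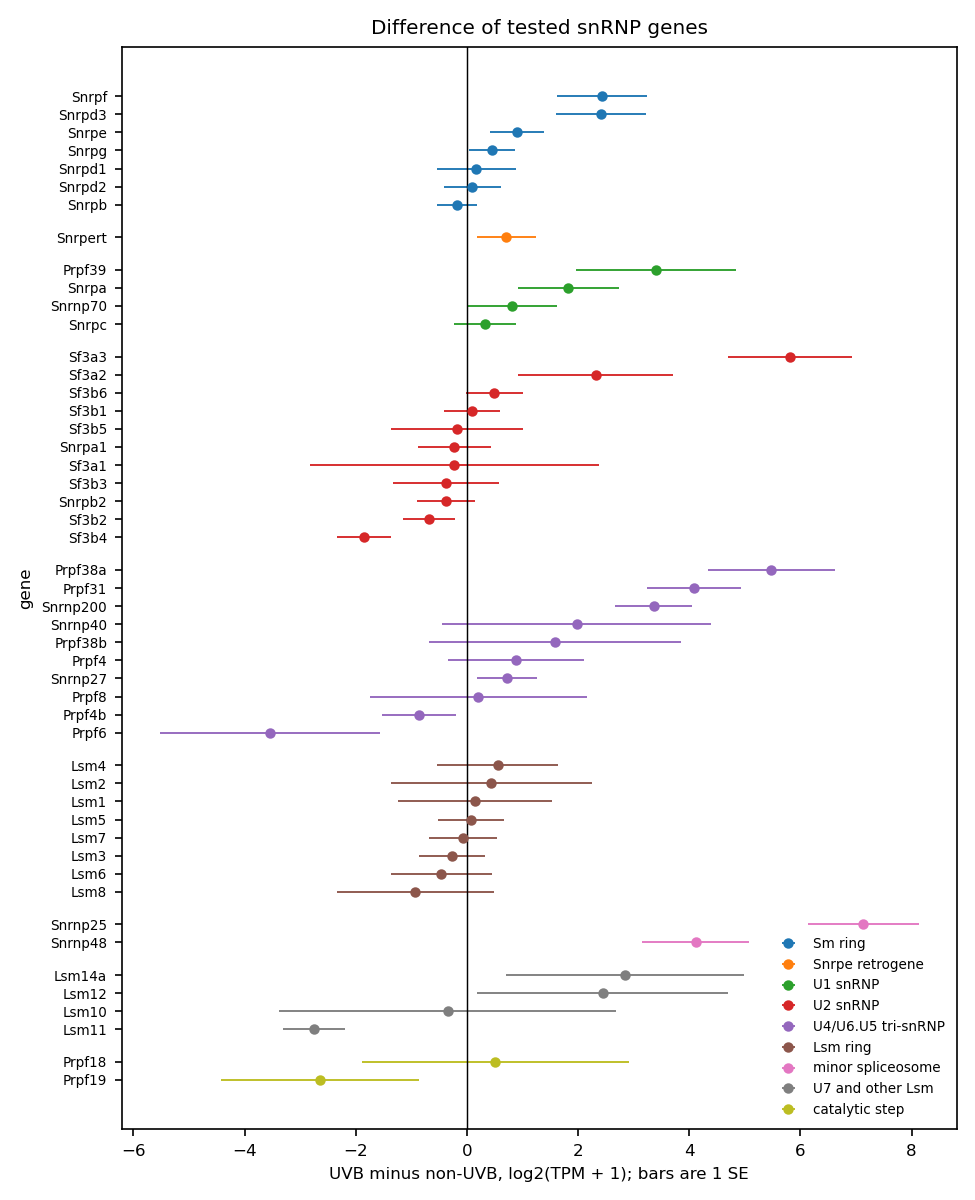
Difference between the group means, UVB minus non-UVB, on the log2(TPM + 1) scale (x axis) for the tested members, all but 1 of the 50 (y axis, grouped by particle), with bars of 1 standard error from limma, n = 2 per group. Snrnp25 lies farthest to the right at 7.13 and Prpf6 farthest to the left at -3.54, and the Lsm ring genes lie around 0.

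The Sm ring, the 7-protein collar shared by the major particles and the minor U11/U12 particle, held the most abundant genes of the family. Snrpe was at 492, 246, 641 and 656 TPM, and Snrpb, which encodes SmB, at 454, 508, 487 and 370 TPM. Snrpb varied little and its groups overlapped, while Snrpe was higher in both UVB libraries by less than 1 log2. Snrpg was at 323, 249, 328 and 457 TPM, Snrpd1 at 122, 382, 222 and 267 TPM, and Snrpd2 at 83.4, 122, 104 and 111 TPM. Snrpg was also higher in both UVB libraries by less than 1 log2, and in Snrpd1 and Snrpd2 both libraries numbered 2 lay above both numbered 1.

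A pair of ring genes had groups apart and higher with UVB by at least 1 log2, as did 18.1% of all tested genes. Snrpd3 was at 10.2, 24.1, 73.5 and 107 TPM, and Snrpf at 60.3, 18.1, 157 and 213 TPM. In both, each UVB library lay above each non-UVB library, with differences of 2.42 ± 0.81 and 2.43 ± 0.81 log2 (SE, n = 2 per group). Snrpd3 overlaps Gucd1 on the opposite strand, which was at 56.4, 0.113, 23.3 and 7.27 TPM, and the reads of the 2 genes cannot be told apart here. The ring proteins are assembled in equal numbers, but protein was not measured here. In RNA, the highest ring gene exceeded the lowest by 48.1 and 28.2 times in the non-UVB libraries and by 8.73 and 6.14 times in the UVB libraries. The lowest gene was Snrpd3 or Snrpf in every library, so this spread is not separate from their differences. The sum of the 7 genes was 1546, 1549, 2013 and 2182 TPM, a ratio of the means of 1.36. Without haemoglobin and mitochondrial genes in the total the ratio was 1.28, and after median scaling it was 1.10 and the groups overlapped. With Snrpd3 and Snrpf left out of the sum the ratio was 1.22, and 0.987 after median scaling. Snrpn, a near copy of Snrpb best known from neurons, was listed at or below 0.027 TPM in every library. Snrpert, a retrogene of Snrpe 279 bp long, followed Snrpe at 0.344, 0.368, 0.302 and 0.323 of its level, and reads of the 2 copies may have been split between them.

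**Figure D3:**
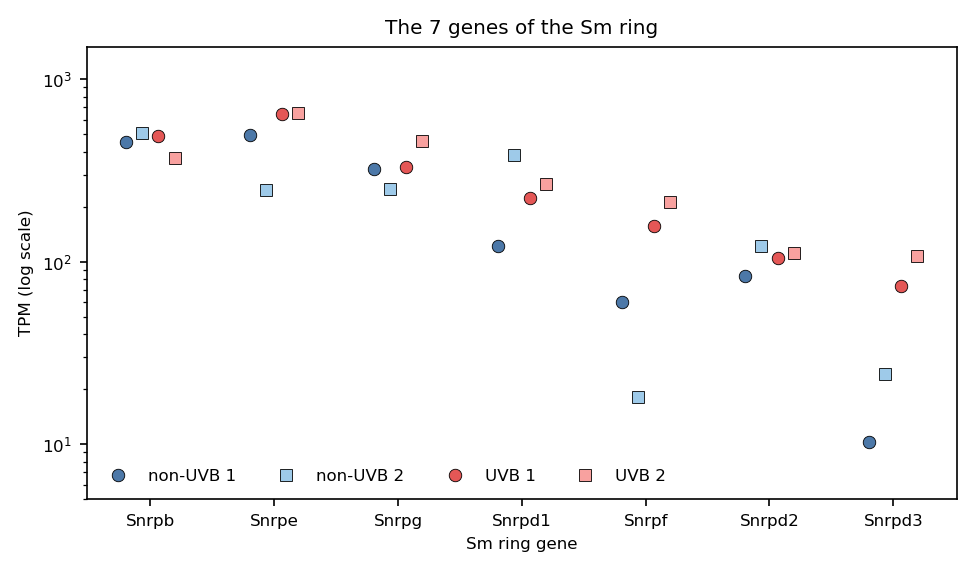
TPM on a log scale (y axis) of the 7 Sm ring genes (x axis), 1 point per library, with circles for number 1 and squares for number 2. The UVB points of Snrpf and Snrpd3 lie above their non-UVB points, while those of Snrpb, Snrpd1 and Snrpd2 are mixed.

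The U1 proteins recognise the 5′ splice site. Snrnp70, the largest of the U1-specific proteins, was at 47.2, 174, 164 and 156 TPM, Snrpc at 119, 222, 254 and 165 TPM, and Snrpa, which encodes the A protein of U1, at 17.9, 75.1, 158 and 113 TPM. Snrpa was higher in both UVB libraries than in both non-UVB libraries, while the groups of the other pair overlapped. Snrpa overlaps BC024978, which was at 0, 0, 0.162 and 14.1 TPM. Prpf39, related to a yeast U1 protein, was at 7.46, 0.320, 43.8 and 26.7 TPM, higher in both UVB libraries, and it overlaps Fkbp3, at 211, 228, 417 and 256 TPM. Prpf40b was listed at 0 in all 4 libraries.

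The U2 proteins bind the branch point through the SF3a and SF3b complexes. The largest SF3b subunit, Sf3b1, was among the steadiest genes of the family, at 87.8, 81.4, 83.1 and 98.0 TPM. Snrpb2, which encodes U2B″, was at 88.6, 101, 79.8 and 66.0 TPM, and Sf3b2 at 147, 131, 82.4 and 90.4 TPM, each lower in both UVB libraries by less than 1 log2. Sf3b4, which contacts the RNA near the branch point, had the most negative difference among members with a mean of at least 50 TPM, at 208, 271, 73.1 and 58.1 TPM, a difference of -1.85 ± 0.48 log2 (SE, n = 2 per group).

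The 3 SF3a subunits did not vary alike, although they work as 1 complex. Sf3a3 was at 0.117, 1.72, 102 and 91.3 TPM, a difference of 5.81 ± 1.11 log2. Sf3a2 was at 22.3, 2.01, 36.6 and 45.1 TPM, higher in both UVB libraries, and it overlaps Plekhj1, at 87.8, 118, 281 and 247 TPM. Sf3a1 was at 26.7, 1.54, 0 and 50.4 TPM, with the UVB libraries at opposite ends. In the other U2 genes the groups overlapped. Snrpa1, which encodes the A′ protein of U2, was at 418, 188, 171 and 335 TPM, Sf3b3 at 27.2, 32.6, 39.4 and 12.9 TPM, and Sf3b6, the p14 subunit, at 108, 197, 193 and 219 TPM. Sf3b5, at 13.2, 59.0, 14.6 and 41.3 TPM, and Sf3b6 were higher in both libraries numbered 2.

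The tri-snRNP brings the catalytic machinery, and 11 genes were grouped with it here. Of these, 3 were near 0 without UVB and above 1 TPM in both UVB libraries, a pattern found at 10.1% of all tested genes. Prpf31, which bridges U4/U6 and U5, was at 0.048, 0, 12.5 and 21.3 TPM. Prpf38a, which joins the complex at activation, was at 0.205, 0.218, 34.6 and 80.9 TPM. Snrnp200, the helicase that unwinds U4 from U6, was at 0, 0.186, 9.47 and 10.96 TPM. Their differences were 4.08 ± 0.84, 5.48 ± 1.14 and 3.36 ± 0.70 log2, and no library of 1 group reached a library of the other.

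The partners of these genes across the shared upstream stretches did not show the same pattern. Tfpt, 55 bp from Prpf31, was at 53.1, 0.298, 19.3 and 24.0 TPM. Orc1, 86 bp from Prpf38a, was at 43.6, 0, 18.7 and 0.131 TPM. The partner of Snrnp200, 1810024B03Rik, was listed at 0 in every library. Leng1, a further neighbour of Prpf31 within 20 kb, was at 0.015, 0, 19.7 and 18.9 TPM, near 0 without UVB as Prpf31 was.

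Other genes grouped with the tri-snRNP went different ways or differed between replicates. Prpf8, the large U5 protein at the heart of the spliceosome, was at 1.04, 43.5, 6.48 and 15.1 TPM, with both libraries numbered 2 above both numbered 1. Snrnp40, another U5 protein, was at 186, 1.70, 194 and 39.2 TPM, the reverse of that order. Prpf6, which bridges U5 and U4/U6, was at 116, 17.2, 0 and 14.7 TPM. Its UVB libraries lay below the non-UVB ones by a narrow gap. Prpf4 was at 0, 5.74, 4.82 and 2.97 TPM and its U4/U6 partner Prpf3 at 0, 0, 0 and 25.0 TPM. Prpf38b was at 0, 41.5, 10.4 and 32.1 TPM, the kinase gene Prpf4b at 56.0, 102, 38.5 and 44.1 TPM, and Snrnp27 at 239, 145, 230 and 412 TPM. Prpf4b was lower in both UVB libraries, by less than 1 log2.

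The Lsm2 to Lsm8 ring holds U6, and replacement of Lsm8 by Lsm1 gives the ring that acts in mRNA decay. All 8 genes reached 1 TPM in every library, as did 46.7% of all tested genes, and no gene had groups that did not overlap. Their sum was 964, 2042, 1284 and 1077 TPM. Lsm3, Lsm7 and Lsm5 were the strongest, at 198 to 429, 150 to 374 and 142 to 319 TPM. Lsm8 was at 67.6, 528, 222 and 43.8 TPM and Lsm1 at 10.7, 74.5, 63.0 and 15.8 TPM, so the ratio of Lsm8 to Lsm1 was 6.30 and 7.09 without UVB and 3.52 and 2.77 with it. Both genes were higher with UVB within number 1 and lower within number 2. How often a ratio of a pair of genes separates the groups was not examined. Lsm4 was at 365, 57.3, 305 and 149 TPM, higher in both libraries numbered 1. Lsm2, at 5.78, 170, 36.8 and 55.4 TPM, was higher in both numbered 2, and Lsm6 was at 25.2, 89.4, 37.5 and 31.6 TPM.

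The 3 minor spliceosome genes were under 1 TPM in both non-UVB libraries, where 28.9% and 27.8% of all tested genes were under 1 TPM. Snrnp25 and Snrnp48 were above 1 TPM in both UVB libraries, a pattern at 10.1% of all tested genes, and Snrnp35 was not tested. Snrnp25 had the most positive difference of the tested members. Snrnp25 (ENSMUSG00000040767, chromosome 11, 32205415 to 32208984, plus strand, GRCm38), the 25K protein of U11, was at 0, 0.718, 172 and 193 TPM, with a read depth of 0, 0.97, 361 and 249. The difference was 7.13 ± 1.003 log2, and the UVB libraries lay close to each other. Snrnp48 (chromosome 13, 38204938 to 38227665, plus strand), the 48K protein that recognises the 5′ splice site of minor introns, was at 0.0075, 0.411, 27.1 and 14.2 TPM, a difference of 4.12 ± 0.97 log2. Snrnp35, the U11 counterpart of Snrnp70, was seen in UVB 1 alone, at 0, 0.218, 12.9 and 0 TPM. The sum of the 3 genes was 0.0075, 1.35, 212 and 208 TPM, most of it from Snrnp25.

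Genes near Snrnp25 and Snrnp48 were mostly low. Rhbdf1, just beyond the end of Snrnp25, was listed at 0 in every library, and Il9r and Mpg were above 1 TPM in UVB 1 alone, at 7.60 and 6.33 TPM. Nprl3 was at 6.02, 0.204, 0 and 25.4 TPM. Dsp, next to Snrnp48, was at 0.789, 0.124, 3.12 and 13.6 TPM. The other proteins of the minor spliceosome did not move as a block. Rnpc3, the 65K protein that bridges U11 and U12, was at 0, 0.114, 26.2 and 15.3 TPM. Zmat5 was at 128, 129, 104 and 32.3 TPM, Zcrb1 at 145, 144, 142 and 211 TPM, and Scnm1 at 151, 160, 84.5 and 29.2 TPM. Of the 9 such genes found 5 were tested, 3 higher and 2 lower in mean with UVB, with a median of 0.26 log2, and 0 passed the adjusted test.

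**Figure D4:**
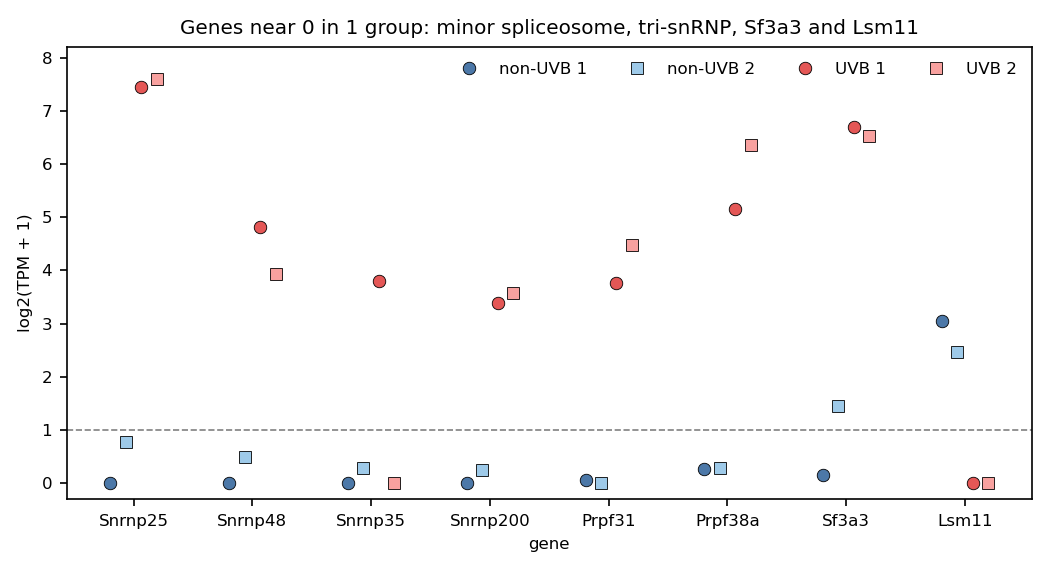
log2(TPM + 1) (y axis) in each library, circles for number 1 and squares for number 2, of 8 chosen members (x axis). Snrnp35 was under 1 TPM in both non-UVB libraries and in UVB 2, and Sf3a3 in non-UVB 1 alone. The others were near 0 in 1 group and above 1 TPM in both libraries of the other. Prpf3, above 1 TPM in UVB 2 alone, is not shown. The dashed line marks 1 TPM, and the UVB points lie above it for 6 genes while Lsm11 is reversed and Snrnp35 is above it in UVB 1 alone.

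The remaining members act outside the splicing core or at its catalytic step. Lsm10 and Lsm11 are part of the ring of U7, which cuts histone pre-mRNA. Lsm11 was at 7.23 and 4.52 TPM without UVB and was listed at 0 in both UVB libraries, the reverse of the minor spliceosome genes, with a difference of -2.75 ± 0.56 log2. Its partner Lsm10 was at 94.9, 0.630, 61.9 and 0.540 TPM and followed the replicate number. The gamma-delta T cell receptor sum was likewise higher in both libraries numbered 1. Lsm14a, a protein of mRNA decay bodies, was at 70.5, 0.552, 102 and 54.6 TPM, and it overlaps Gm12764, an antisense gene at 41.8 TPM in UVB 2. Lsm12 was at 51.2, 0, 29.4 and 49.8 TPM, and Lsm14b reached 1.01 TPM in non-UVB 2 alone. Prpf19, a ubiquitin ligase, was at 33.7, 23.5, 17.7 and 0.166 TPM, lower in both UVB libraries, and Prpf18, which acts in the second step, at 0, 47.7, 20.3 and 3.66 TPM. In all, 5 tested members (10%) were higher in both libraries numbered 1 and 9 (18%) in both numbered 2, against 18.5% and 22.5% of all tested genes.

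Around the family, most tested genes that build and import snRNPs had a higher mean with UVB, as did 61.0% of all tested genes, and none passed the test. Of 17 assembly and import genes 11 were tested, 9 had a higher mean and 2 a lower one, the median was 1.65 log2 beside 0.26 for all tested genes, and 0 passed. Gemin6, of the SMN complex that loads Sm rings, was at 0, 0, 56.3 and 38.8 TPM. Snupn, the import adaptor, was at 0, 0.280, 44.9 and 34.7 TPM, and Clns1a, the Sm chaperone pICln, at 0.098, 14.8, 137 and 128 TPM. Gemin6, Snupn and Clns1a were the 3 with groups apart and higher by at least 1 log2, a pattern at 18.1% of tested genes. Smn1 itself was at 194, 88.7, 114 and 174 TPM, with no gap between groups. The 2 with a lower mean were Gemin7, at 261, 68.65, 114.5 and 75.5 TPM, and Sart3, at 55.2, 2.74, 20.6 and 0.11 TPM. Among 8 factors of the 3′ splice site 7 were higher, with a median of 1.16 log2, and 0 passed. Among 13 tested genes of the Prp19 complex and the catalytic step 7 were higher and 6 lower, with a median of 0.026 log2, and 0 passed. Among 7 tested further tri-snRNP and U5 genes 4 were higher and 3 lower, and 0 passed. All 12 SR protein genes, which steer splice site choice, reached 1 TPM in every library, as did 46.7% of all tested genes. Of the 12, 5 had a higher and 7 a lower mean with UVB, and 0 passed. Srsf9, the SR gene with groups apart and higher with UVB by at least 1 log2, was at 50.7, 41.3, 406 and 219 TPM. Srsf11, the SR gene with groups apart and lower by at least 1 log2, was at 222, 180.5, 142 and 16.3 TPM.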

How the data were processed

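Per the labels' protocols, RNA of 4 libraries was prepared with a SMARTer kit for very low input and read as 100 bp single ends. HISAT2, StringTie and DESeq2 with GRCm38 (mm10) are named in the submitters' processing notes, with no version or role given. The authors deposited a gene table per library with coverage, FPKM and TPM, per the file headers. Deposited coverage is a mean read depth per base, and deposited FPKM and TPM are scaled for length and library. Rows of a gene ID were summed. Read numbers were not recovered, so no counting interval is given. The planned design allowed for read numbers; the files hold TPM, so limma 3.58.1 in R 4.3.3 was run on log2(TPM + 1) with an intensity trend. It used 10286 genes at 1 TPM or more in at least 2 libraries, group as the only term and Benjamini-Hochberg adjustment at 0.05. A log2 difference understates the change of low genes. Values of 1 member are not reported here. Members and gene lists were chosen with earlier results of these data known. Named genes were the core snRNP genes, those near 0 in 1 group, the 5 most positive and 5 most negative differences and the 5 steadiest at a mean of 50 TPM or more, those listed at 0 in a library and at 10 TPM or more in another, and neighbours within 20 kb. Alternatives changed the pseudocount, filter, unit, scaling, detection level and block, and left out each library. The labels do not state the strand setting, so overlapping genes cannot be separated.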

Additional observations from a re-analysis of the deposited data

How the results depend on the processing

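No alternative gave a gene with an adjusted p under 0.05. The median difference of the tested members, 0.44 log2, was 0.15 with a pseudocount of 10 TPM, 0.16 after median scaling, 0.18 after quantile normalization and -0.10 within replicate number 2, and -0.03 to 0.56 when each library was left out in turn. Quantile normalization put the median of all tested genes at -0.19. The 11 members separated and higher with UVB became 13 to 18 with a library left out, and the 4 separated and lower became 4 to 13, or 7 at any size of difference. The 5 near 0 without UVB became 5 to 9 with a library left out, 3 at a mean of at least 10 TPM, 1 after quantile normalization and 1 with 0.1 TPM as detected. The 1 near 0 with UVB became 1 to 3 with a library left out, 0 at a mean of at least 10 TPM and 0 with 5 TPM as detected. Of 50 members, 23 kept their sign in every alternative in which they were tested, 16 higher and 7 lower with UVB, and 8 changed sign under a scaling or FPKM. The shares of all tested genes under the alternatives were not taken, so these counts of members have no background. In this balanced design the replicate block cannot move the median (0.44) or the counts of members, and with it 1110 genes had an unadjusted p under 0.05, against 1167 without it. The numbers pair nothing that the labels name, and deviations of same-numbered libraries correlated at 0.165 across genes. With 2 libraries per group and no read numbers, genes listed at 0 cannot be told from genes missed at this input.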

Other observations

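The small nuclear RNA genes themselves were looked up after the protein values had been seen. Rnu12, the RNA of the minor U12 particle, was at 42.7, 0.351, 19.6 and 21.8 TPM in the order non-UVB 1, non-UVB 2, UVB 1 and UVB 2, so its groups overlapped. Rnu11, the RNA that Snrnp25 and Snrnp48 join, was at 13.2, 54.0, 6.66 and 3.83 TPM, the opposite direction to those genes, and it overlaps Gm28872. Rnu2-10, a U2 RNA gene, was at 136, 120, 105 and 148 TPM. Rnu7, the RNA of U7, was at 0.0097, 0.046, 0.0005 and 0.012 TPM, and it overlaps Grcc10 and Gm45234. These RNA genes are 62 to 191 bp long, and how well the libraries measure such short RNAs was not tested. No test was run on these genes.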
